A study of Mus musculus with 9 samples.

Results

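The genes described here encode SR proteins, hnRNPs and other RNA-binding factors of pre-mRNA splicing, measured in naive, Th1 and Th17 cells of the mouse. The rule that chose them uses the symbol and no measured value: every gene whose symbol starts with Srsf, Hnrnp, Sf3a, Sf3b, Mbnl, Celf or Ptbp. Earlier results of these data were known when the choice was made. The RefSeq table holds 55 such symbols, of which 51 had a probe on the array through their RefSeq accession. The other 4, Srsf11, Srsf3-ps, Hnrnpa1l2-ps and Hnrnpa1l2-ps2, were matched to no probe. Of the 51, 49 passed the filter on dim probes and were tested among 19071 genes in all. Celf3 and Celf5 were above background on 2 of the 9 arrays and were not tested. By family the tested genes were 10 Srsf, 20 Hnrnp, 9 Sf3, 3 Mbnl, 4 Celf and 3 Ptbp genes.

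All cells came from BALB/c mice, from spleen and lymph nodes. They were enriched for CD4 on magnetic columns and received PMA, a phorbol ester, at 10 ng/ml together with ionomycin, which carries calcium into cells, at 500 ng/ml for 3 h. They were then labelled for secreted IL-17A and IFNg and sorted by flow cytometry as CD3+ CD4+. Naive cells were CD45RB high. Th1 cells were CD45RB low, IFNg+ and IL17A-, and Th17 cells were CD45RB low, IFNg- and IL17A+. Each population had 3 arrays, and the naive cells they are compared with were stimulated too. Unstimulated cells were not analysed here. The labels name no animals behind the replicates, so that a p-value here reflects the spread between arrays, part of which may be technical.

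Splicing removes introns from pre-mRNA, and the choice of exons can differ between cell types. SR proteins carry a domain rich in arginine and serine, bind mostly to enhancers within exons and favour the use of those exons. The hnRNPs are a varied group of RNA-binding proteins, many of which bind silencers and favour exon skipping. The SF3a and SF3b complexes belong to the U2 snRNP, which recognises the branch point of the intron, and the MBNL, CELF and PTBP proteins regulate particular alternative exons. In T cells the textbook example is Ptprc, the gene of the phosphatase CD45. Naive cells include variable exons that form the CD45RB epitope, and antigen-experienced cells skip them. The sort by CD45RB therefore separated the populations by a product of alternative splicing.

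The level of Ifng was 1.42 in naive, 9.12 in Th1 and 1.72 in Th17 cells and that of Il17a was -3.03, -0.77 and 9.24, as the gates on these proteins select. A level is the log2 intensity minus the 75th percentile of its array, which makes the level of 1 gene comparable between arrays but not with that of another gene. All 6 measured T cell markers were above background on every array, at summed levels of 7.6 to 7.76 in naive, 8.27 to 8.67 in Th1 and 8.59 to 8.68 in Th17 cells. Of the 5 B cell markers 4 were above background on no array, as were 2 of 3 NK cell markers and Cd8a. The haemoglobin gene Hba-a1 ran from -4.81 to -3.37 in naive, from -4.86 to 0.35 in Th1 and from -0.22 to 1.45 in Th17 cells. The 6 myeloid markers summed to 4.09 to 4.11 in naive, 4.69 to 4.99 in Th1 and 4.33 to 4.95 in Th17 cells. That sum is mostly Itgam, at 3.63 to 3.69, 4.55 to 4.82 and 4.09 to 4.79. Csf1r went the other way, at 2.08 to 2.2, 1.18 to 1.74 and 1.27 to 1.45, while Cd14 rose. The 2 CD8 markers summed to -0.8 to -0.55, -3.97 to -3.74 and -4.2 to -3.72, mostly from Cd8b1. The summed NK cell markers ran from -0.67 to -0.05, from -2.08 to -0.97 and from -6.08 to -3.99, and Eomes alone of them was above background on any array. The part of such cells in the changes below was not tested, and in these bulk samples a smaller share of cells of a type cannot be told apart from less RNA per cell. Slide 1 held the 3 naive arrays and Th1 replicate 1, slide 2 held Th1 replicates 2 and 3 with Th17 replicates 1 and 2, and slide 3 held Th17 replicate 3. Naive and Th17 arrays thus never shared a slide. A fit with slide as a block, which gives each slide its own shift, therefore takes the Th1 change against naive from Th1 replicate 1 alone. Its Th17 change against naive is linked through that same array and leaves out Th17 replicate 3. Calls kept, gained or lost against naive cells with that block or within slide 1 carry this limit.

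Against naive cells the splicing factor genes went both ways in Th1 and Th17 cells. Celf2 and Hnrnpll rose most, Hnrnpu rose about as far in both populations, and Srsf7, Srsf3 and Hnrnpc fell at their brightest probes. The dimmer Srsf7 probe and the dimmest Srsf3 probe were not called. In Th1 cells 14 of the 49 genes were higher and 11 lower than in naive cells, at a limma adjusted p under 0.05. The 25 called genes were 51% of those tested, beside 53.9% of all genes (23.5% higher and 30.4% lower), a share near the background. In Th17 cells 15 were higher and 9 lower. These 24 were 49%, beside 54.2% of all genes (24.4% higher and 29.7% lower), again near the background. The median change of the 49 genes was 0.02 in Th1 and 0.12 in Th17 cells, against -0.09 for all genes in each comparison. By fitted value, changes of at least 2-fold were called for 4 genes up and 1 down in Th1 cells, beside 20.7% of all genes, and for 5 up and 2 down in Th17 cells, beside 22.2%. The 1 down in Th1 cells was Srsf12, which was above background on no Th1 array and whose fall is bounded only at 1.74-fold. The 2 down in Th17 cells were Srsf7 and again Srsf12. Srsf12 was above background on no Th17 array either, and its fall there is bounded at 2.2-fold.

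Between Th17 and Th1 cells 1 of the 49 genes passed, Mbnl1, which was lower in Th17 cells, beside 15.8% of all genes (8.28% higher and 7.53% lower). Its change was under 2-fold, a size that 6.4% of all genes passed. The comparisons of Th1 and Th17 with naive cells share the naive arrays, so the values are given side by side and are not independent. Of the 49 genes 11 were called higher in both, 8 lower in both and 0 in opposite directions. Another 6 were called in Th1 cells alone, 3 of them higher, and 5 in Th17 cells alone, 4 of them higher, and 19 were called in neither. A call in 1 population alone is no difference between the populations, since of these 11 genes only Mbnl1 passed the test of that difference. The share of all genes with each of these patterns was not counted, so the counts are not read as a trait of the 49 genes. The arrays of the compared groups did not overlap for 30 of the 49 genes between Th1 and naive cells, 33 between Th17 and naive cells and 12 between Th17 and Th1 cells, beside 65.4%, 63.3% and 35.4% of all genes.

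**Figure D1:**
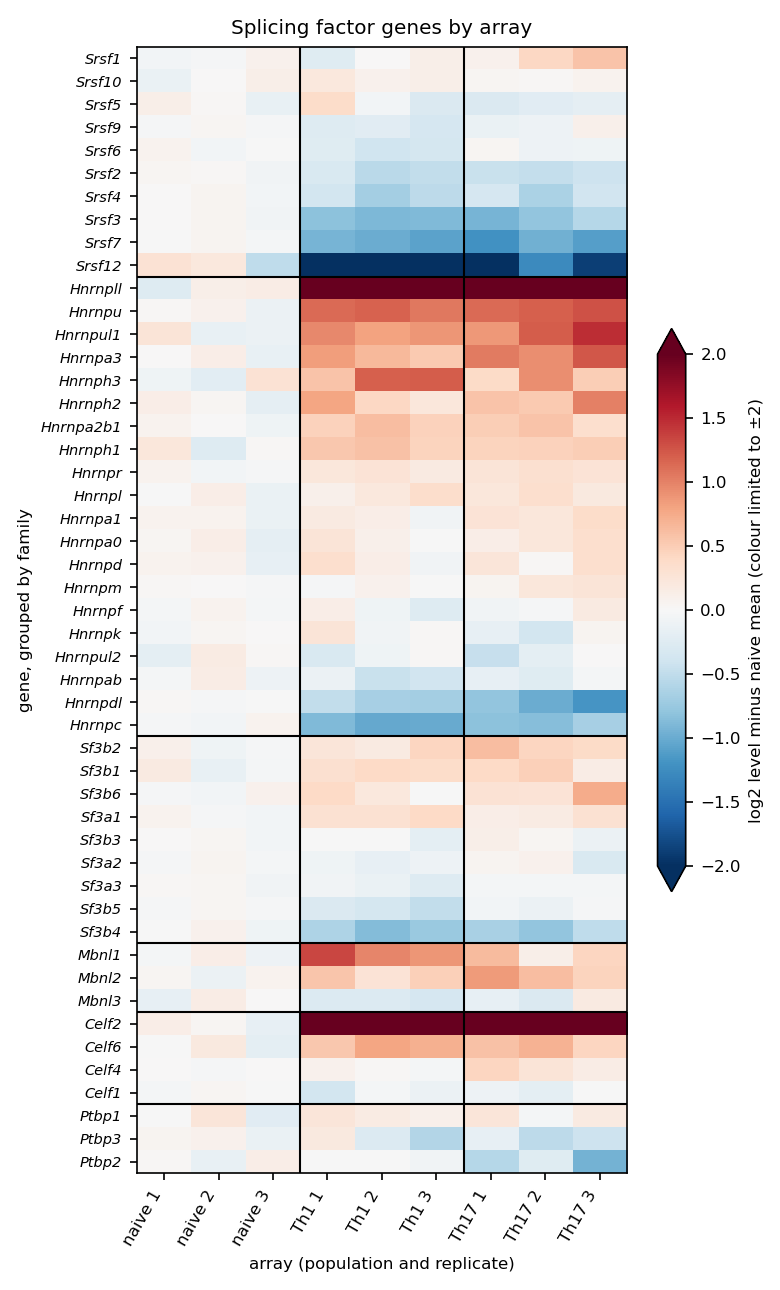
Level of each of the 49 splicing factor genes on the 9 arrays, as the log2 difference from the mean of the naive arrays, with genes grouped by family and ordered within it; colours stop at 2 in either direction. Celf2 and Hnrnpll are at the top of the scale on all 6 Th1 and Th17 arrays and Srsf12 is low on all 6, while most other genes stay within 1.

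Promoter sequence is shown for 4 genes that moved the same way in both populations, so that its letters can be compared between genes that fell and a gene that rose. The 250 bases before the start were taken from RefSeq (GRCm38.p6). The 4 genes have a single RefSeq start each and were chosen after their values were seen. Srsf3, Srsf7 and Hnrnpc were lower and Hnrnpu was higher in Th1 and Th17 cells. Capitals mark matches, on either strand, to CCAAT (the NF-Y box), CCGGAAG (an ETS motif), TGANTCA (AP-1), TGACGTCA (CRE) or TATAAA. No 2 of these matches overlap.
Srsf3, chr17:29032410-29032659, plus strand: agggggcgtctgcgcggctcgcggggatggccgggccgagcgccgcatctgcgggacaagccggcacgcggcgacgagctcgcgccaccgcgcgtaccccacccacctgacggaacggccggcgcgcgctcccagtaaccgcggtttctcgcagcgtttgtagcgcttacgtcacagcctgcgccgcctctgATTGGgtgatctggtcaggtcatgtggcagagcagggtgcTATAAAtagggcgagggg
Srsf7, chr17:80207306-80207555, minus strand: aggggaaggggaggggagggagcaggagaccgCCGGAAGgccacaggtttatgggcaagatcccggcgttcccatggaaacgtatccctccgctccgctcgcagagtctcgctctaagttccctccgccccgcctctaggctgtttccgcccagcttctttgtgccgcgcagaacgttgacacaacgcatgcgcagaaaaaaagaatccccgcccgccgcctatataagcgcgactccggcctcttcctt
Hnrnpc, chr14:52104022-52104271, minus strand: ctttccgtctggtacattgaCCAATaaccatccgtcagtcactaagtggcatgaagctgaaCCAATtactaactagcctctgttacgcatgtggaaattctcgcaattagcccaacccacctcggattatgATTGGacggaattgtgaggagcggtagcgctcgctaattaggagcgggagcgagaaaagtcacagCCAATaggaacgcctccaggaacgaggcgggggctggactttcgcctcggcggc
Hnrnpu, chr1:178337816-178338065, minus strand: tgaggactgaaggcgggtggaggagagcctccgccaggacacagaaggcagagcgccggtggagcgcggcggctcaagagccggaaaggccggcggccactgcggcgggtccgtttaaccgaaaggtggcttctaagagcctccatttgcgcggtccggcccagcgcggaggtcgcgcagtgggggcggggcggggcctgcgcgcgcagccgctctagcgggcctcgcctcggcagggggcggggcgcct
The Hnrnpc sequence held CCAAT 4 times, the Srsf3 sequence held it once, as ATTGG, with TATAAA nearer the start, the Srsf7 sequence held CCGGAAG once, and the Hnrnpu sequence held 0 matches. RefSeq promoters were found for 43 of the 49 genes. CCAAT lay in 22 of the 43, beside 37.5% of all genes, and CCGGAAG in 11, beside 7.83%. TGANTCA lay in 2 (7.82% of all genes), TGACGTCA in 1 (1.77%) and TATAAA in 6 (14.3%). Of the 10 promoters of genes higher in both populations 7 held CCAAT and 0 held CCGGAAG. Of the 7 of genes lower in both 3 held CCAAT and 2 held CCGGAAG, and of the 17 of genes called in neither 9 and 6 did. Only these exact letters were searched, so close variants carry no mark, such as tatataag in the Srsf7 and ccggaaag in the Hnrnpu sequence. A match describes the letters and is no measured binding site, and the lack of a match does not show that a site is absent.

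The regulators of CD45 splicing were taken first. Hnrnpll, whose product drives the skipping of the variable CD45 exons, stood at 1.71, 2.08 and 2.12 on the naive arrays, at 4.46, 4.76 and 4.36 on the Th1 arrays and at 4.46, 4.48 and 4.15 on the Th17 arrays. All 6 Th1 and Th17 arrays lay above all naive arrays, and the Th1 and Th17 arrays overlapped. The change was 2.55 ± 0.16 (SE) in Th1 cells, a 5.87-fold rise (adjusted p = 7.64e-06), and 2.39 ± 0.16 in Th17 cells, a 5.25-fold rise (adjusted p = 1.06e-05). Th17 against Th1 cells gave -0.16 ± 0.16 (adjusted p = 0.544). With slide as a block, where the Th1 value rests on Th1 replicate 1 alone, the rises were 2.49 and 2.4.

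Hnrnpl, the close relative of Hnrnpll that also binds the silencers of these exons, stood at -1.37, -1.23 and -1.5 in naive cells. It stood at -1.26, -1.16 and -1.02 in Th1 and at -1.14, -1.03 and -1.17 in Th17 cells. The Th1 arrays overlapped the naive ones, while the Th17 arrays lay just above them. Neither change passed, at 0.22 ± 0.11 (adjusted p = 0.125) and 0.26 ± 0.11 (adjusted p = 0.0779). When arrays were scaled to the 75th percentile of probes above background on all arrays, Hnrnpl passed in both, at 0.37 (adjusted p = 0.0293) and 0.34 (adjusted p = 0.0376), while slide as a block gave 0.11 (adjusted p = 0.6) and 0.12 (adjusted p = 0.694). Sfpq, the gene of PSF, which also acts on CD45 exons and is no member by symbol, stood at 3.53, 3.42 and 3.32 in naive, 4.47, 4.62 and 4.45 in Th1 and 4.43, 4.62 and 4.66 in Th17 cells. It rose by 1.09 ± 0.11 (adjusted p = 7.88e-05) and 1.15 ± 0.11 (adjusted p = 5.48e-05), with no overlap between the naive and the other arrays.

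Ptprc itself stood at 4.93, 5.05 and 4.78 in naive, 5.15, 4.66 and 4.43 in Th1 and 4.93, 4.59 and 4.88 in Th17 cells. The 3 groups overlapped and no change passed, at -0.17 ± 0.19 (adjusted p = 0.476) and -0.12 ± 0.19 (adjusted p = 0.624). Where the Ptprc probe lies relative to the variable exons was not determined here, so its level is no measure of CD45 exon use.

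**Figure D2:**
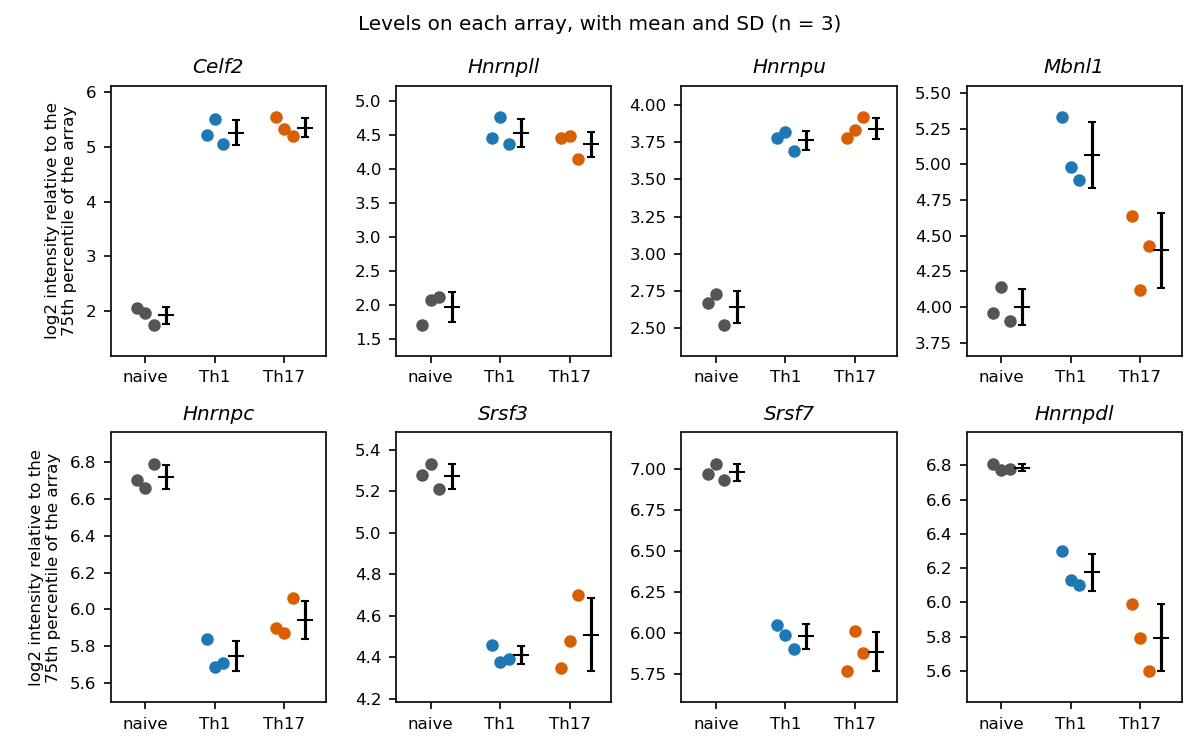
Levels of 8 splicing factor genes on each array (points), as log2 intensity minus the array's 75th percentile, with the mean and SD of the 3 arrays of each population beside them; the vertical scale differs between panels and does not start at 0. Celf2, Hnrnpll and Hnrnpu are higher and Hnrnpc, Srsf3, Srsf7 and Hnrnpdl lower on every Th1 and Th17 array than on every naive array, while Mbnl1 is clear of the naive arrays in Th1 cells alone.

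Celf2 showed the largest rise of the 49 genes in both populations. Its product binds GU-rich RNA and regulates alternative exons and transcript stability, and it is known in T cell lines as a splicing regulator after stimulation. The levels were 2.05, 1.96 and 1.75 in naive, 5.22, 5.5 and 5.05 in Th1 and 5.54, 5.32 and 5.19 in Th17 cells, with all Th1 and Th17 arrays far above the naive ones. Celf2 rose by 3.34 ± 0.15 in Th1 cells, or 10.1-fold (adjusted p = 1.44e-06), and by 3.43 ± 0.15 in Th17 cells, or 10.8-fold (adjusted p = 1.5e-06). The difference of Th17 from Th1 cells was 0.09 ± 0.15 (adjusted p = 0.728). All 3 Celf2 probes rose, the dimmer ones by 3.41 and 3.48 in Th1 and by 3.67 and 3.77 in Th17 cells.

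Celf6, a brain-enriched member of the family, rose by 0.68 ± 0.13 in Th1 (adjusted p = 0.00262) and by 0.57 ± 0.13 in Th17 cells (adjusted p = 0.00606). It stood at -3.57, -3.37 and -3.76 in naive, -3.02, -2.78 and -2.86 in Th1 and -2.98, -2.87 and -3.14 in Th17 cells, again without overlap. The Th17 change of Celf6 was 0.45 with slide as a block and no longer passed (adjusted p = 0.188). Celf4 rose by 0.28 ± 0.1 in Th17 cells (adjusted p = 0.0421) and was at 0.02 ± 0.1 in Th1 cells (adjusted p = 0.886). The Th17 call of Celf4 ended on leaving out any single array other than Th17 replicate 3 (adjusted p from 0.0502 to 0.129) and with slide as a block (adjusted p = 0.088). The second, dimmer Celf4 probe was above background on 4 arrays, and its 4 highest levels were on the naive arrays and Th17 replicate 3. Its levels were -3.92, -4.07 and -3.76 in naive, -6.49, -5.95 and -6.2 in Th1 and -5.66, -6 and -2.6 in Th17 cells. Its fitted changes were -2.30 in Th1 (adjusted p = 0.0321) and -0.83 in Th17 cells (adjusted p = 0.382). These use values below background and are no measured sizes, so this probe does not settle the direction of Celf4. Celf1, the widely expressed member, was at -0.17 ± 0.11 (adjusted p = 0.24) and -0.10 ± 0.11 (adjusted p = 0.485). With slide as a block Celf1 was lower in Th1 cells, at -0.37, a value resting on Th1 replicate 1 alone, and was at -0.44 in Th17 cells.

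Of the muscleblind genes, Mbnl1 rose in Th1 cells and Mbnl2 in both populations. MBNL proteins act on many of the exons that CELF proteins regulate, often in the opposite sense. Mbnl1 stood at 3.96, 4.14 and 3.9 in naive, 5.33, 4.98 and 4.89 in Th1 and 4.64, 4.12 and 4.43 in Th17 cells. The Th1 arrays lay above all others, and Th17 replicate 2 fell within the naive range. The change was 1.07 ± 0.17 in Th1 cells (2.1-fold, adjusted p = 0.000939) and 0.40 ± 0.17 in Th17 cells (adjusted p = 0.0774). Without Th17 replicate 2 the latter passed (0.54, adjusted p = 0.03). Mbnl1 was -0.67 ± 0.17 in Th17 against Th1 cells (adjusted p = 0.0296), the only call of the 49 genes between these populations. That call was lost in 4 of the 9 fits without an array, those without replicate 1 or 2 of Th1 and without replicate 2 or 3 of Th17 cells (adjusted p from 0.061 to 0.0828). Within slide 2, which held 2 arrays of each, Mbnl1 was at -0.56 (adjusted p = 0.207), and with slide as a block at -0.56 (adjusted p = 0.124).

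Mbnl2 stood at 0.66, 0.51 and 0.69 in naive, 1.18, 0.89 and 1.1 in Th1 and 1.47, 1.24 and 1.06 in Th17 cells. No Th1 or Th17 array reached down to the naive ones. Mbnl2 rose by 0.44 ± 0.13 in Th1 (adjusted p = 0.0229) and by 0.64 ± 0.13 in Th17 cells (adjusted p = 0.00397), and all 3 of its probes were called higher in both. The Th1 call at the brightest Mbnl2 probe ended without naive replicate 2 or Th1 replicate 1 or 3 (adjusted p from 0.0639 to 0.0774). Mbnl3 was at -0.29 ± 0.14 (adjusted p = 0.106) and -0.10 ± 0.14 (adjusted p = 0.579), the former called without Th17 replicate 3 (adjusted p = 0.0433).

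The PTBP genes encode repressors that bind pyrimidine tracts. Ptbp1, the form of most tissues, was at 0.16 ± 0.14 (adjusted p = 0.35) and 0.12 ± 0.14 (adjusted p = 0.47), with a naive range of 4.22 to 4.69 that spanned most other arrays. Ptbp2, best known from neurons, stood at -0.8, -0.97 and -0.68 in naive, -0.83, -0.82 and -0.89 in Th1 and -1.39, -1.06 and -1.76 in Th17 cells. The Th17 arrays were the lowest and varied most. Ptbp2 fell by 0.59 ± 0.17 in Th17 cells (adjusted p = 0.0185), and was at -0.03 ± 0.17 in Th1 cells (adjusted p = 0.899). The Th17 call of Ptbp2 ended without naive replicate 3 (-0.52, adjusted p = 0.0651) and with slide as a block (-0.38, adjusted p = 0.269). In Th17 against Th1 cells Ptbp2 was at -0.56 ± 0.17 (adjusted p = 0.0612), and passed without Th17 replicate 2 (-0.73, adjusted p = 0.0212). Ptbp3, a form of blood cells, was at -0.22 ± 0.2 (adjusted p = 0.378) and -0.36 ± 0.2 (adjusted p = 0.154).

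Genes of SR proteins were lower where they passed the test, although Srsf1 or Srsf10 was called higher under some of the other settings, among them those given below. Of the 10 tested, 7 were called lower and 0 higher in Th1 cells, beside 30.4% lower and 23.5% higher of all genes. In Th17 cells 5 were lower and 0 higher, beside 29.7% and 24.4%, and the median changes were -0.38 and -0.34. These counts include Srsf12, whose fall follows from the filter. Over the 9 Srsf genes above background on all arrays 6 were lower in Th1 and 4 in Th17 cells, with medians of -0.33 and -0.23. Srsf7, whose product also exports mRNA from the nucleus, stood at 6.97, 7.03 and 6.93 in naive, 6.05, 5.99 and 5.9 in Th1 and 5.77, 6.01 and 5.88 in Th17 cells. It fell by 1.0 ± 0.1 in Th1 (adjusted p = 7.41e-05) and by 1.09 ± 0.1 in Th17 cells (adjusted p = 4.12e-05) at this brightest probe. A dimmer Srsf7 probe was at 0.41 in Th1 (adjusted p = 0.0859) and 0.24 in Th17 cells (adjusted p = 0.282). Srsf3, the smallest SR protein and another export adaptor, stood at 5.28, 5.33 and 5.21 in naive, 4.46, 4.38 and 4.39 in Th1 and 4.35, 4.48 and 4.7 in Th17 cells. It fell by 0.87 ± 0.11 (adjusted p = 0.000281) and 0.76 ± 0.11 (adjusted p = 0.000505). At the brightest probe of both genes every naive array was above every other array, and the promoters of both are among those printed above.

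Srsf2, a marker of nuclear speckles also called SC35, stood at 3.45 to 3.55 on the naive, 2.98 to 3.21 on the Th1 and 3.03 to 3.1 on the Th17 arrays. It fell by 0.44 ± 0.09 (adjusted p = 0.00436) and 0.45 ± 0.09 (adjusted p = 0.00409). Srsf4, which encodes SRp75, fell by 0.52 ± 0.12 (adjusted p = 0.00682) and 0.45 ± 0.12 (adjusted p = 0.0135), without overlap with the naive arrays. Srsf6 and Srsf9 were called in Th1 cells alone. Srsf6 fell by 0.33 ± 0.09 (adjusted p = 0.0161), a call lost without naive replicate 1 or Th1 replicate 2 (adjusted p of 0.0509 and 0.0629). Srsf9 fell by 0.27 ± 0.1 (adjusted p = 0.0423), a call lost without any single naive or Th1 array or Th17 replicate 2 (adjusted p from 0.0569 to 0.117). In Th17 cells they were at -0.05 and -0.04, and Srsf6 and Srsf9 did not pass between Th17 and Th1 cells (adjusted p of 0.0768 and 0.154).

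Srsf12 was above background on the 3 naive arrays and on no other array. It passed the filter on dim probes only through the naive arrays, so its presence among the falls follows from that filter. The mean of its measured levels was -4.29 in naive, -6.84 in Th1 and -6.11 in Th17 cells. Set against the dimmest signal above background, Srsf12 was at least 1.74-fold lower in Th1 and at least 2.2-fold lower in Th17 cells. The limma adjusted p of 0.000313 and 0.00174 belong to the fitted changes and test neither bound. With slide as a block the Th17 call of Srsf12 was lost. The remaining SR genes passed in neither population. Srsf1, the SR protein also called ASF, was at -0.05 ± 0.15 in Th1 and 0.36 ± 0.15 in Th17 cells (adjusted p of 0.816 and 0.0702), and its Th17 arrays lay above all naive arrays, replicate 1 only just (2.63 against 2.62). Without Th17 replicate 1, Srsf1 passed against naive (0.5, adjusted p = 0.0199) and against Th1 cells (0.54, adjusted p = 0.0442). Its Th17 change was -0.06 with slide as a block (adjusted p = 0.86), and its 2 dimmer probes were at -0.35 and -0.25 in Th17 cells. Srsf5 was at 0.01 ± 0.17 and -0.23 ± 0.17, and Srsf10, a repressor among SR proteins, at 0.14 ± 0.1 and 0.04 ± 0.1.

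The count of the Srsf genes changed with slide and scaling, as did that of all genes. With slide as a block fewer of all genes were called lower in both populations. The smaller Srsf counts under it are therefore not read as a trait of this family. With slide as a block 3 of the 10 Srsf genes were lower in Th1 cells, Srsf3, Srsf7 and Srsf12, and 2 in Th17 cells, Srsf3 and Srsf7. Under quantile normalization 5 were lower and 0 higher in Th1 cells and 5 lower and 1 higher in Th17 cells, the last being Srsf1 (0.45, adjusted p = 0.0342). With the percentile of probes above background on all arrays 5 were lower and 1 higher in each. The rise was Srsf10 in Th1 (0.29, adjusted p = 0.0271) and Srsf1 in Th17 cells (0.44, adjusted p = 0.0442). Of all 19071 genes quantile normalization called 5151 lower and 4469 higher in Th1 and 5351 lower and 4708 higher in Th17 cells. That percentile called 4431 lower and 5452 higher in Th1 and 4923 lower and 5220 higher in Th17 cells.

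**Figure D3:**
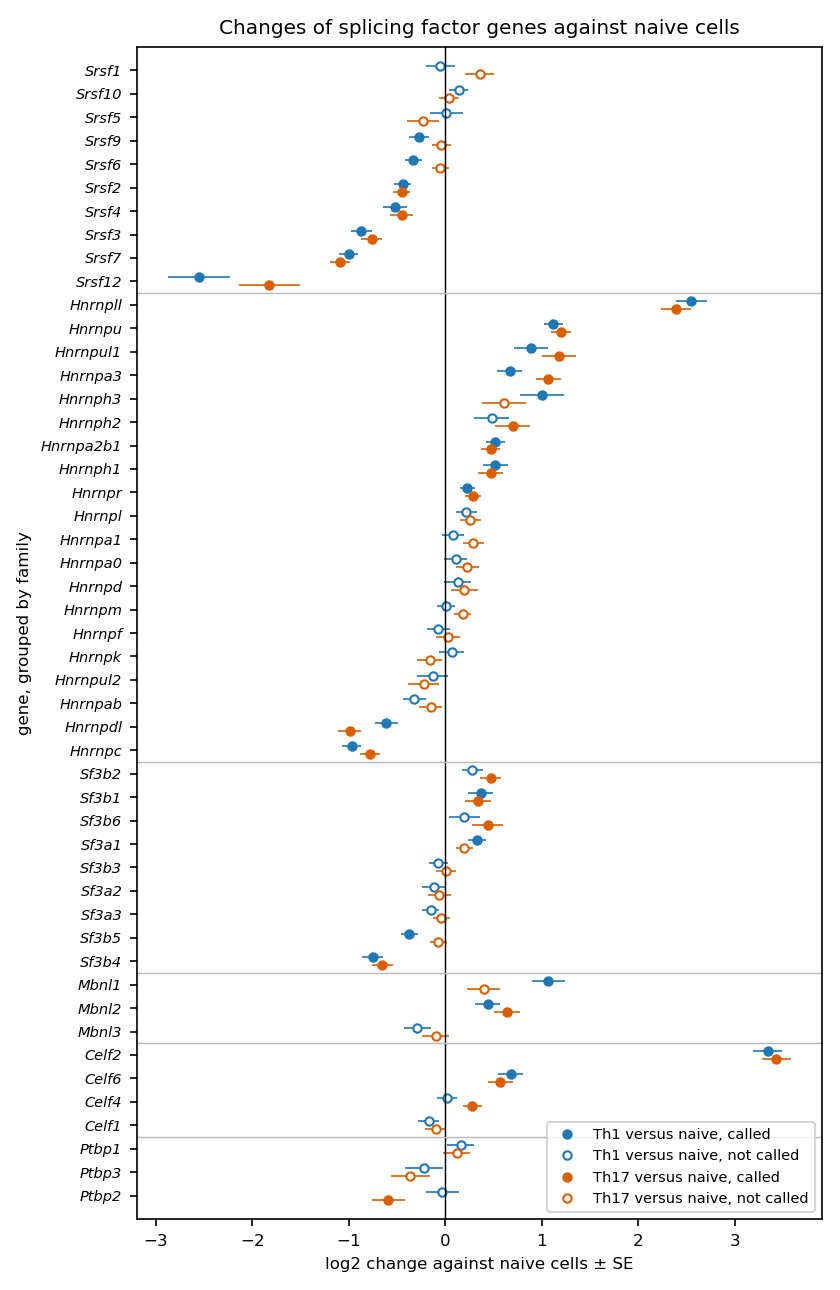
Log2 change against naive cells with its SE for the 49 splicing factor genes, in Th1 (blue) and Th17 cells (orange); filled points passed an adjusted p of 0.05. Every filled Srsf point lies below 0 at this setting (under some others, 2 scalings among them, Srsf1 or Srsf10 was called above it), filled Hnrnp points lie on both sides, and Celf2 and Hnrnpll stand apart at changes above 2.

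Among the 20 hnRNP genes 8 were called higher and 2 lower in Th1 cells, and again 8 higher and 2 lower in Th17 cells, with median changes of 0.18 and 0.27. The 50% called in each is near the 53.9% and 54.2% of all genes, of which 23.5% and 24.4% were called higher. Hnrnpu, whose product is also the nuclear scaffold attachment factor SAF-A, stood at 2.67, 2.73 and 2.52 in naive, 3.78, 3.82 and 3.69 in Th1 and 3.78, 3.83 and 3.92 in Th17 cells. The naive arrays lay apart from the other 6 by more than the range within any group. Hnrnpu rose by 1.12 ± 0.1 (2.18-fold, adjusted p = 3.55e-05) and by 1.20 ± 0.1 (2.3-fold, adjusted p = 2.26e-05). Its relative Hnrnpul1 stood at -1.39, -1.8 and -1.76 in naive, -0.69, -0.84 and -0.77 in Th1 and -0.79, -0.44 and -0.17 in Th17 cells. It rose by 0.89 ± 0.18 (adjusted p = 0.00305) and 1.18 ± 0.18 (adjusted p = 0.000648). A second Hnrnpul1 probe gave 0.49 (adjusted p = 0.0603) and 0.23 (adjusted p = 0.35) and was not called. Hnrnpul2 was at -0.13 ± 0.16 and -0.22 ± 0.16 and was not called either.

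The A/B type hnRNPs include classical antagonists of SR proteins at exons. Hnrnpa3 stood at 4.96, 5.09 and 4.8 in naive, 5.78, 5.6 and 5.48 in Th1 and 5.99, 5.88 and 6.19 in Th17 cells, so that the 3 groups did not overlap. It rose by 0.67 ± 0.13 (adjusted p = 0.00278) and 1.07 ± 0.13 (adjusted p = 0.000227), and Th17 against Th1 cells gave 0.40 ± 0.13 (adjusted p = 0.075), which passed under quantile normalization (0.34, adjusted p = 0.0338). Hnrnpa2b1, which also guides mRNA transport, rose by 0.52 ± 0.1 (adjusted p = 0.00296) and 0.47 ± 0.1 (adjusted p = 0.0049), from 2.98 to 3.14 on the naive arrays to 3.4 to 3.69 on the others. The Th1 call of Hnrnpa2b1 was lost within slide 1 (0.47, adjusted p = 0.067) and the Th17 call with slide as a block (0.46, adjusted p = 0.102). Hnrnpa1 and Hnrnpa0 passed in neither, at 0.08 and 0.29 and at 0.11 and 0.23. The Th17 value of Hnrnpa1 (adjusted p = 0.0535) passed without Th1 replicate 3 (adjusted p = 0.0457). The second Hnrnpa1 probe was at -0.33 in Th1 (adjusted p = 0.0315) and -0.22 in Th17 cells, and the second Hnrnpa0 probe at -0.32 and -0.46, so that the direction of both genes depends on the probe. Hnrnpab was at -0.32 ± 0.12 in Th1 cells (adjusted p = 0.0594), and passed without Th1 replicate 1 (-0.42, adjusted p = 0.0222). Slide as a block gave -0.11 (adjusted p = 0.546), and the second Hnrnpab probe was at 0.11.

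The H/F type hnRNPs bind runs of guanine. Hnrnph1 rose by 0.52 ± 0.13 in Th1 (adjusted p = 0.00809) and 0.47 ± 0.13 in Th17 cells (adjusted p = 0.0129), with levels of 3.96 to 4.44 in naive, 4.66 to 4.8 in Th1 and 4.66 to 4.71 in Th17 cells. Hnrnph1 no longer passed with slide as a block (adjusted p of 0.0692 and 0.217). Hnrnph3 rose by 1.0 ± 0.23 in Th1 cells (adjusted p = 0.00606), from between -4.18 and -3.69 to between -3.4 and -2.76, and its Th17 value of 0.61 ± 0.23 missed the threshold (adjusted p = 0.0504). The Th1 change of Hnrnph3 was 0.58 with slide as a block (adjusted p = 0.133). Its Th17 value passed without naive replicate 3, Th1 replicate 1 or Th17 replicate 1 (adjusted p from 0.0262 to 0.0499), and was 0.03 with slide as a block (adjusted p = 0.964). Hnrnph2 rose by 0.70 ± 0.18 in Th17 cells (adjusted p = 0.0122) and was at 0.48 ± 0.18 in Th1 cells (adjusted p = 0.0569), a value called without Th1 replicate 3 (0.6, adjusted p = 0.0373) or Th17 replicate 3 (adjusted p = 0.0327), and with slide as a block (0.79, adjusted p = 0.0106). Hnrnpf was at -0.07 ± 0.12 and 0.03 ± 0.12.

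Hnrnpc and Hnrnpdl were the hnRNP genes that fell. Hnrnpc, whose product binds runs of uridine in nascent transcripts, stood at 6.7, 6.66 and 6.79 in naive, 5.84, 5.69 and 5.71 in Th1 and 5.9, 5.87 and 6.06 in Th17 cells. It fell by 0.97 ± 0.1 (adjusted p = 7.85e-05) and 0.78 ± 0.1 (adjusted p = 0.000246), and its second probe gave -1.03 and -0.89. Hnrnpdl, a relative of the AU-rich element binding protein hnRNP D, stood at 6.81, 6.77 and 6.78 in naive, 6.3, 6.13 and 6.1 in Th1 and 5.99, 5.79 and 5.6 in Th17 cells. The 3 groups did not overlap, with Th17 cells lowest. It fell by 0.61 ± 0.12 (adjusted p = 0.00265) and 0.99 ± 0.12 (adjusted p = 2e-04), and Th17 against Th1 cells gave -0.38 ± 0.12 (adjusted p = 0.0645). Under quantile normalization the Th1 change of Hnrnpdl was -0.21 (adjusted p = 0.277) and the difference between Th17 and Th1 cells passed (-0.54, adjusted p = 0.0452). That difference also passed without Th17 replicate 1 (-0.48, adjusted p = 0.0363).

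Hnrnpr rose by 0.23 ± 0.08 (adjusted p = 0.0465) and 0.29 ± 0.08 (adjusted p = 0.0193). The Th1 call of Hnrnpr ended on leaving out any single array other than Th17 replicate 3 (adjusted p from 0.0527 to 0.138), and the Th17 call without naive replicate 2 or 3 or Th17 replicate 2 (adjusted p from 0.0604 to 0.0665). Hnrnpd, Hnrnpk and Hnrnpm passed in neither population, with changes from -0.16 to 0.2. With slide as a block 6 of the 20 hnRNP genes were higher and 2 lower in Th1 cells, and 5 were higher and 2 lower in Th17 cells. Hnrnpll, Hnrnpu, Hnrnpul1, Hnrnpa3, Hnrnpc and Hnrnpdl kept their calls in both under that block. Fewer of all genes were called under it as well, in both populations.

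The 9 genes of the SF3a and SF3b complexes moved by less than 1 log2 unit. In Th1 cells 2 were higher and 2 lower, and in Th17 cells 3 were higher and 1 lower. The 44.4% called in each stands beside 53.9% and 54.2% of all genes. Sf3b4, which contacts the pre-mRNA just upstream of the branch point, stood at 4.49, 4.59 and 4.41 in naive, 3.88, 3.63 and 3.75 in Th1 and 3.85, 3.71 and 3.99 in Th17 cells. It fell by 0.75 ± 0.11 (adjusted p = 0.000789) and 0.65 ± 0.11 (adjusted p = 0.00159), and its second probe was at -0.64 in both. The Th17 change of Sf3b4 was -0.53 with slide as a block (adjusted p = 0.0752). Sf3b5, a small subunit, fell by 0.37 ± 0.09 in Th1 cells (adjusted p = 0.00826) and was at -0.07 ± 0.09 in Th17 cells (adjusted p = 0.563). The Th1 change of Sf3b5 was -0.28 with slide as a block (adjusted p = 0.102).

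Sf3b1, the largest subunit and the target of splicing inhibitors such as pladienolide, rose by 0.37 ± 0.13 (adjusted p = 0.0369) and 0.34 ± 0.13 (adjusted p = 0.0495). The Th1 call of Sf3b1 ended without any single Th1 array, naive replicate 2 or naive replicate 3 (adjusted p from 0.061 to 0.123), and the Th17 call without any single array other than naive replicate 1 and Th17 replicate 3 (adjusted p from 0.0638 to 0.157). Sf3a1 rose by 0.33 ± 0.09 in Th1 cells (adjusted p = 0.0145), a call lost without naive replicate 3 (adjusted p = 0.0558), and was at 0.20 ± 0.09 in Th17 cells (adjusted p = 0.0954). Sf3b2 rose by 0.47 ± 0.11 in Th17 cells (adjusted p = 0.00677) and was at 0.28 ± 0.11 in Th1 cells (adjusted p = 0.0581). Sf3b6, the subunit that lies next to the branch point adenosine, rose by 0.44 ± 0.16 in Th17 cells (adjusted p = 0.043). The call of Sf3b6 ended without any single naive array, Th1 replicate 2 or Th17 replicate 3 (adjusted p from 0.0627 to 0.112). Sf3a2, Sf3a3 and Sf3b3 passed in neither, with changes from -0.15 to 0.01. With slide as a block none of the Sf3 calls was kept other than that of Sf3b4 in Th1 cells.

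Splicing factor genes are themselves alternatively spliced, and different probes of a gene can read different transcripts. Several probes were kept for 24 of the 49 genes. In Th1 against naive cells all probes were called the same way for 6 genes, some for 8 and none for 10, and the counts were the same in Th17 against naive cells. No gene had probes called in opposite directions. Srsf7 differed by probe. Beside the fall at its brightest probe, the dimmer one was at 0.41 in Th1 (adjusted p = 0.0859) and 0.24 in Th17 cells (adjusted p = 0.282). The mean of the 2 Srsf7 probes was -0.29 in Th1 cells and did not pass (adjusted p = 0.0684). Srsf3 fell at 2 probes, with -0.74 and -0.56 at the second, and was at -0.01 and -0.05 at its dimmest. Hnrnpdl was at -0.09 and -0.01 at its second probe.

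Hnrnpa3 had 6 kept probes. The 4 probes of 1 RefSeq accession were all called higher and gave 0.60 to 0.86 in Th1 and 0.98 to 1.41 in Th17 cells, and the other 2, which carry another RefSeq accession of the gene, gave 0.08 and 0.33 in Th1 and 0.02 and 0.26 in Th17 cells, of which the 0.33 passed (adjusted p = 0.0224). The dimmest Hnrnpa3 probe was called between Th17 and Th1 cells (0.55, adjusted p = 0.0133). The dimmest of 3 Celf1 probes was called there as well (0.62, adjusted p = 0.0109) and rose in Th17 cells (0.35, adjusted p = 0.0388). Where each probe lies in its gene was not determined, so these differences are not tied to an exon or end of the transcript. Whether probes of Srsf3 and Hnrnpa1 also bind RNA of the related copies in the RefSeq table was not tested.

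**Figure D4:**
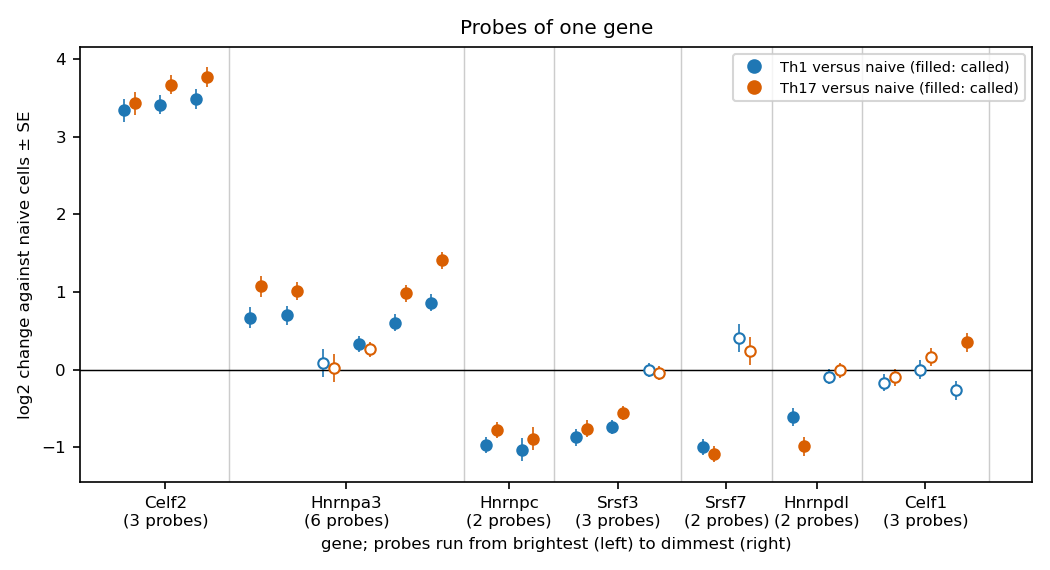
Log2 change against naive cells with its SE at each kept probe of 7 splicing factor genes, in Th1 (blue) and Th17 cells (orange); probes of a gene run from the brightest to the dimmest and filled points passed an adjusted p of 0.05. The 3 Celf2 probes lie together above 3, while the dimmest probes of Srsf3, Srsf7 and Hnrnpdl lie near or above 0 beside brighter probes that fell.

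The rest of the splicing machinery was read from a list of 138 tested genes, 68 of which were called in Th1 cells (21 higher, 47 lower) and 75 in Th17 cells (33 higher, 42 lower). These are 49.3% and 54.3% of the list, beside 53.9% and 54.2% of all genes. In Th1 cells 23.5% of all genes were higher and 30.4% lower, and in Th17 cells 24.4% and 29.7%, which the counts below may be read against. With slide as a block fewer of all genes were called in each direction in both populations. Smaller counts under that block are therefore not read as a trait of a list. Quantile normalization called 4469 of all genes higher and 5151 lower in Th1 cells. Of the 70 core spliceosome genes 9 were higher and 25 lower in Th1 cells and 20 higher and 19 lower in Th17 cells. With slide as a block these counts were 3 and 15 and then 7 and 3, and quantile normalization gave 12 higher and 16 lower in Th1 cells. Isy1, a factor of the catalytic spliceosome, rose by 1.24 ± 0.14 and 1.5 ± 0.14, and Cwc27, a spliceosomal cyclophilin, by 1.11 ± 0.12 and 1.72 ± 0.12. Between Th17 and Th1 cells 8 core genes were higher and 0 lower, beside 8.28% higher and 7.53% lower of all genes. The 8 became 5 without any single Th1 array or naive replicate 3, 3 with slide as a block and 2 within slide 2. Over all genes the calls higher in Th17 cells went from 1579 to 1158 with slide as a block and to 728 within slide 2. Snrnp35, a protein of the minor spliceosome, was 0.91 ± 0.11 higher in Th17 cells (adjusted p = 0.00102), and Snrnp27, of the U4/U6.U5 tri-snRNP, 0.69 ± 0.08 higher (adjusted p = 0.000846).

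SR proteins work through phosphorylation by the SRPK and CLK kinases and are imported by transportin 3. Of the 8 tested genes of this list 4 were lower and 0 higher in Th1 cells, where the percentile of probes above background on all arrays turned Srpk2 into a call higher (0.53, adjusted p = 0.0496). In Th17 cells 6 were lower and 0 higher, or 3 lower with slide as a block. Clk1 fell by 0.86 ± 0.18 and 1.61 ± 0.18, Clk3 by 0.72 ± 0.14 and 1.15 ± 0.14, Srpk1 by 0.73 ± 0.11 and 0.81 ± 0.11, and Tnpo3 by 0.43 ± 0.11 and 0.48 ± 0.11. The calls of Clk4 and Srpk2 were in Th17 cells alone, with falls of 0.81 ± 0.16 and 0.90 ± 0.2, against -0.20 ± 0.16 and 0.38 ± 0.2 in Th1 cells, and were lost with slide as a block (adjusted p of 0.192 and 0.195). All 3 genes of the list called between Th17 and Th1 cells were lower in Th17 cells. These were Srpk2 at -1.28 ± 0.2 (adjusted p = 0.00433), Clk1 at -0.75 ± 0.18 (adjusted p = 0.0246) and Clk4 at -0.61 ± 0.16 (adjusted p = 0.0373). The call of Clk1 ended without Th17 replicate 3 and without Th1 replicate 2 or 3 (adjusted p from 0.0539 to 0.0786), and that of Clk4 without any single array other than Th1 replicate 3 and Th17 replicate 2 (adjusted p from 0.052 to 0.107).

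Of the 60 other splicing regulators 12 were higher and 18 lower in Th1 cells, and 13 were higher and 17 lower in Th17 cells. The block on slide left 8 and 12 in Th1 and 7 and 7 in Th17 cells. Rbmx, the gene of hnRNP G, rose by 1.45 ± 0.1 and 2.20 ± 0.1 and was 0.75 ± 0.1 higher in Th17 than in Th1 cells (adjusted p = 0.00223). Rsrc1, which encodes a protein with an SR-type domain, rose by 1.73 ± 0.14 and 1.96 ± 0.14, and Tia1, which binds uridine-rich RNA next to weak splice sites, by 1.38 ± 0.17 and 1.03 ± 0.17. Khdrbs3, a relative of Sam68, was above background on the naive arrays alone and passed the filter on dim probes only through them, so its place among the falls follows from that filter. It was at least 23.8-fold lower in Th1 and at least 30-fold lower in Th17 cells. The limma adjusted p of 1.14e-05 and 1.49e-05 belong to the fitted changes, which use values below background, and test neither bound. The poly(C)-binding protein genes Pcbp3 and Pcbp4 fell by 1.76 ± 0.12 and 1.29 ± 0.18 in Th1 and by 1.62 ± 0.12 and 1.13 ± 0.18 in Th17 cells. Elavl3, a neuronal RNA-binding protein, was above background on 3 naive, 1 Th1 and 0 Th17 arrays. It passed the filter on dim probes through the naive arrays, so its place among the falls follows from that filter. Its fitted fall of 1.14 ± 0.19 in Th1 cells is no measured size, and it was at least 2.44-fold lower in Th17 cells.

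**Figure D5:**
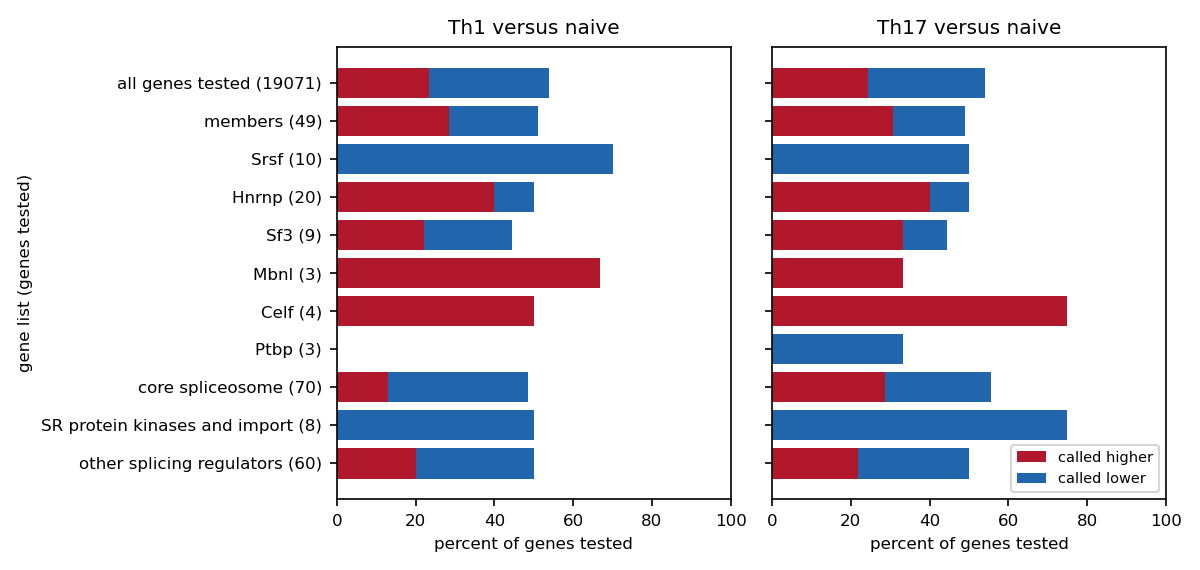
Percent of tested genes called higher (red) and lower (blue) against naive cells in each family and splicing gene list and over all genes tested, for Th1 (left) and Th17 cells (right); bars start at 0 and the number of genes tested is beside each name. The bar of the 49 members is about as long as that of all genes, the Srsf and SR kinase bars hold falls alone (other scalings add Srsf1, Srsf10 or Srpk2 as a rise), and the Celf and Mbnl bars hold rises alone (Celf1 was lower in Th1 cells with slide as a block, Celf4 with kept probes averaged, and Mbnl3 without Th17 replicate 3).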

How the data were processed

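RNA of 9 sorted samples, 0.5 µg each, was labelled with Cy3 and hybridised to 1-colour Agilent arrays of design 026655. Each deposited file gives a processed intensity per spot, background-subtracted by Agilent Feature Extraction (10.7.3.1 per the file headers, 10.5 per the submitters' processing notes). The authors' deposited table has log2 values, compared with those used here on the 23215 kept probes. A constant per probe, whose baseline is unknown, and a constant per array were removed first. After that 100% of deviations, as rounded, lay within 0.05. A difference in array scaling would have been removed too, so the scaling was not compared. The column medians of the deposited table ran from -0.0962 to 0.284. The headers name build mm9, so RefSeq tables gave names and promoters alone. The labels name 2 RNA kits without tying them to samples.

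The 75th percentile of each array was subtracted from the log2 processed signal (44397 spots, 1377 of them controls, which were left out with outlier spots). Of 39429 probes 27234 had 1 symbol and 12195 had none. Probes well above background on at least 3 of 9 arrays were kept, and the brightest stood for each of 19071 genes, 13080 of them with a symbol. Of the 89 member probes 83 were kept. Arrays had 53.4% to 58.3% of probes above background, and the number of arrays limits the precision.

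One limma model (version 3.58.1, R 4.3.3, lmFit and eBayes) covered the 9 arrays in 3 groups, and calls are two-sided at an adjusted p under 0.05 (Benjamini-Hochberg over all genes tested). The fit was tested on simulated data with independent noise on each array and no slide shift, so that test does not cover differences between slides. Lower bounds ("at least") set the brighter group's mean against the dimmest signal still above background. Members and lists were chosen with earlier results of these data known. Members named with values follow a written rule (the regulators of CD45 splicing, every Celf, Mbnl and Ptbp gene, the largest changes, the smallest p of each family), and the other members were named to account for all of them. Clk3, Srpk1 and Tnpo3 were added after their values were seen. One cell type marker and the sum that holds it are not reported here. The alternatives were 12 processing settings and leaving out each of the 9 arrays.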

Additional observations from a re-analysis of the deposited data

Results flagged for a closer look

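The following genes passed the test of the difference between Th17 and Th1 cells itself. Mbnl1 was the single one of the 49 splicing factor genes, at -0.67 (limma adjusted p = 0.0296), a call lost in 4 of the 9 fits that left out an array and with slide as a block (adjusted p = 0.124). Of the other splicing genes, Snrnp35 at 0.91, Rbmx at 0.75 and Snrnp27 at 0.69 were higher in Th17 cells. Srpk2 at -1.28, Clk1 at -0.75, Clk4 at -0.61 and Rbm4b at -0.48 were lower, and the call of Rbm4b ended without Th1 replicate 1 or 2 or Th17 replicate 2 (adjusted p from 0.0529 to 0.0588). Rbm24, above background on the Th17 arrays alone, entered the test only through them, so that its higher level there follows from the filter. It had a fitted difference of 2.82 (limma adjusted p = 0.0198), which is no measured size, and was at least 2.49-fold higher in Th17 than in Th1 cells. The call of Rbm24 ended without Th1 replicate 1 or 3 or Th17 replicate 3 (adjusted p from 0.0509 to 0.0652).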

How the results depend on the processing

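Of the 25 members called in Th1 and the 24 called in Th17 against naive cells, 19 in each kept their call on leaving out any single array, and 10 and 11 in every alternative other than planned normexp. Leaving out 1 array gave 21 to 27, 20 to 24 and, for Th17 against Th1, 0 to 3 members, and 51 to 73, 61 to 76 and 8 to 15 other splicing genes. Planned normexp gave 2, 2 and 0 members and 1, 5 and 0 other genes (against 68, 75 and 15). It turned the direction in Th1 cells of Hnrnpa2b1 (-0.07), Hnrnph1 (-0.11), Hnrnpr (-0.4), Sf3a1 (-0.22), Srsf12 (0.45), Elavl3 (0.48) and Rbm4b (0.12), and of Rbm24 between Th17 and Th1 cells (-0.07). Local backgrounds over 10 times the array median were found for 5 spots of Th1 replicate 2 and 1 of Th17 replicate 3. With these set to the median, a setting chosen after seeing the data, normexp called 23, 21 and 1 members. Averaging kept probes gave Celf4 -1.14 in Th1 and -0.28 in Th17 cells, values that include its dim second probe, which was above background on 4 arrays. The slide settings that follow take the Th1 change against naive from Th1 replicate 1 alone. Slide as a block gave 17, 11 and 0 members and 42, 27 and 5 other genes. Within a slide 14 members and 27 other genes were called in Th1 against naive cells, and 0 and 3 between Th17 and Th1 cells. For Th17 against Th1, quantile normalization, the percentile of probes above background on all arrays and the filter on all 9 arrays gave 3 members each, no filter 0 with 8 other genes, and a fit of those 2 groups alone 0. Over all genes, Th1 against naive called 10288 (normexp 1248, slide block 7893, within slide 6547), Th17 against naive 10332 (normexp 1230, slide block 5242) and Th17 against Th1 3015 (normexp 175, within slide 1419). The percentile of probes above background on all arrays shifted the all-gene median of Th1 against naive cells from -0.093 to 0.055, the share of higher calls from 43.6% to 55.2% and the members to 18 higher and 9 lower; in Th17 cells they were 23 higher and 9 lower. With the replicate number as a block 22, 24 and 2 members and 65, 74 and 15 other genes were called, Srsf1 among the members as a rise in Th17 cells (0.36, adjusted p = 0.0261). The labels do not say that numbers pair samples, and residuals of same-numbered arrays correlated at -0.00686 to 0.175, those of others at -0.197 to 0.0648. The causes of these changes were not tested.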
